A study of Mus musculus with 8 samples.

Results

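Potassium channel subunit genes were examined in the lumbar spinal cord of male SOD1G93A mice. Members were the genes whose symbol begins with *Kcn* followed by letters and a number, apart from *Kcnj10*. The name matched 91 genes of the count table, and 79 of them passed the filter on low counts that the authors applied, out of 19470 genes kept. The other 12 members stayed below that filter and are described last.

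The RNA came from 8 male mice carrying the SOD1G93A transgene on a C57BL/6J background (C57BL/6 in the strain label), all 120 days old by the labels, although the study's account of the experiment describes this tissue as end-stage. In 4 mice the genotype was SOD1G93A Ager fl/fl Cx3cr1 Cre/+ (Ager-deleted), and in the other 4 it was SOD1G93A Ager+/+ Cx3cr1 Cre/+ (Cre control). Every mouse received tamoxifen at 12 weeks of age, so transgene, Cre allele and tamoxifen were shared and the 2 genotypes differed in the floxed *Ager* alleles, which encode RAGE, the receptor for advanced glycation end products. The Cre is a tamoxifen-inducible form driven by *Cx3cr1*, a gene of microglia and some peripheral myeloid cells. The RNA was taken from whole lumbar cord, in which fewer cells of a type and less RNA per cell cannot be told apart.

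Potassium channels set the resting potential of neurons and glia and end the action potential. Voltage-gated (Kv) channels open on depolarization, inward rectifiers (Kir) and 2-pore-domain (K2P) channels carry current near rest, and calcium-activated (KCa) channels follow intracellular calcium or, in some members, sodium. In the spinal cord Kv1 channels sit beside the nodes of Ranvier of myelinated axons, Kv3 channels permit fast firing, astrocytic Kir channels take up potassium released by neurons, and microglia use a small set of K2P, Kir, Kv1 and KCa channels.

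Total counts per mouse ranged from 31148047 to 40324897, and a count of 3 corresponded to between 0.0744 and 0.0963 CPM, the count scaled to library size. All 6 Hox genes of the lumbar list passed the filter, and the neuron, astrocyte and oligodendrocyte lists were expressed in every mouse. The Ager-deleted mice were E1776, E5231, then E5248 and E5568; the controls were E5386, E5642, then E6578 and E6732. In that order *Ager* was at 0.889, 1.51, 1.02 and 1.34 CPM with the deletion and at 1.53, 2.22, 2.18 and 2.41 CPM without it. The groups did not overlap, and the log2 fold change was -0.81 (SE 0.22, adjusted p = 0.252 by edgeR's exact test). Some libraries stood apart in genes of other tissues. The mean log2(CPM + 1) of 17 skeletal muscle genes was 5.96 and 6.36 in controls E5386 and E5642 and lay between 1.24 and 1.89 in the other 6 mice. The mean of 5 liver genes was 5.59 in control E6732 and at most 1.05 elsewhere, and that of 6 Schwann cell genes was 1.37 in control E5386 and between 3.82 and 5.26 elsewhere. Values in every mouse are given below in the same order, Ager-deleted mice first.

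The members took a similar share of all counts in both genotypes. The share was 0.397%, 0.341%, 0.424% and 0.375% in Ager-deleted mice and 0.359%, 0.345%, 0.403% and 0.380% in controls. To compare genes with each other, TMM-normalized CPM was divided by the length of the exons in kb, which gives a level per kb. Summed over the 79 members, this level was 621 ± 43.1 (SD, n = 4) in Ager-deleted mice and 609 ± 35.7 (SD, n = 4) in controls. The 28 pore-forming Kv genes made up the largest class, at 274 ± 30.8 and 269 ± 22.9 per kb. The 9 auxiliary Kv genes followed at 141 ± 12.0 and 135 ± 8.88, then the 11 K2P genes at 78.2 ± 3.27 and 76.9 ± 8.39, the 11 Kir genes at 57.0 ± 0.705 and 59.1 ± 0.841, the 8 KCa genes at 34.4 ± 3.83 and 34.5 ± 2.43, the 9 electrically silent Kv modifiers at 33.8 ± 4.90 and 32.3 ± 0.935, and the 3 auxiliary KCa genes at 2.24 ± 0.326 and 2.06 ± 0.312.

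Genes of Kv1 and Kv3 channels were among those with the highest levels per kb, and the cell source of the RNA was not measured. *Kcnab2*, the Kvβ2 subunit that assembles with axonal Kv1 channels, had the highest level per kb at 60.3 over all mice. Other high levels were those of *Kcnk1* (TWIK-1) at 37.0, *Kcna2* (Kv1.2) at 35.2, *Kcna1* (Kv1.1) at 31.0, *Kcnab3* (Kvβ3) at 28.7 and *Kcnc1* (Kv3.1) at 23.4. After these came *Kcnj16* (Kir5.1), the partner of Kir4.1 in astrocytes, at 19.5, and the sodium-activated channel *Kcnt1* at 18.5. In all, 17 members exceeded 10 per kb and 20 lay under 1. The lowest levels per kb belonged to *Kcng3* at 0.117, *Kcnh3* at 0.131 and *Kcne2* at 0.146. The order of close neighbours depended on the length used. With coding length in place of exon length, 7 of the first 10 members stayed among the first 10 and 11 members moved by more than 10 places.

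**Figure D1:**
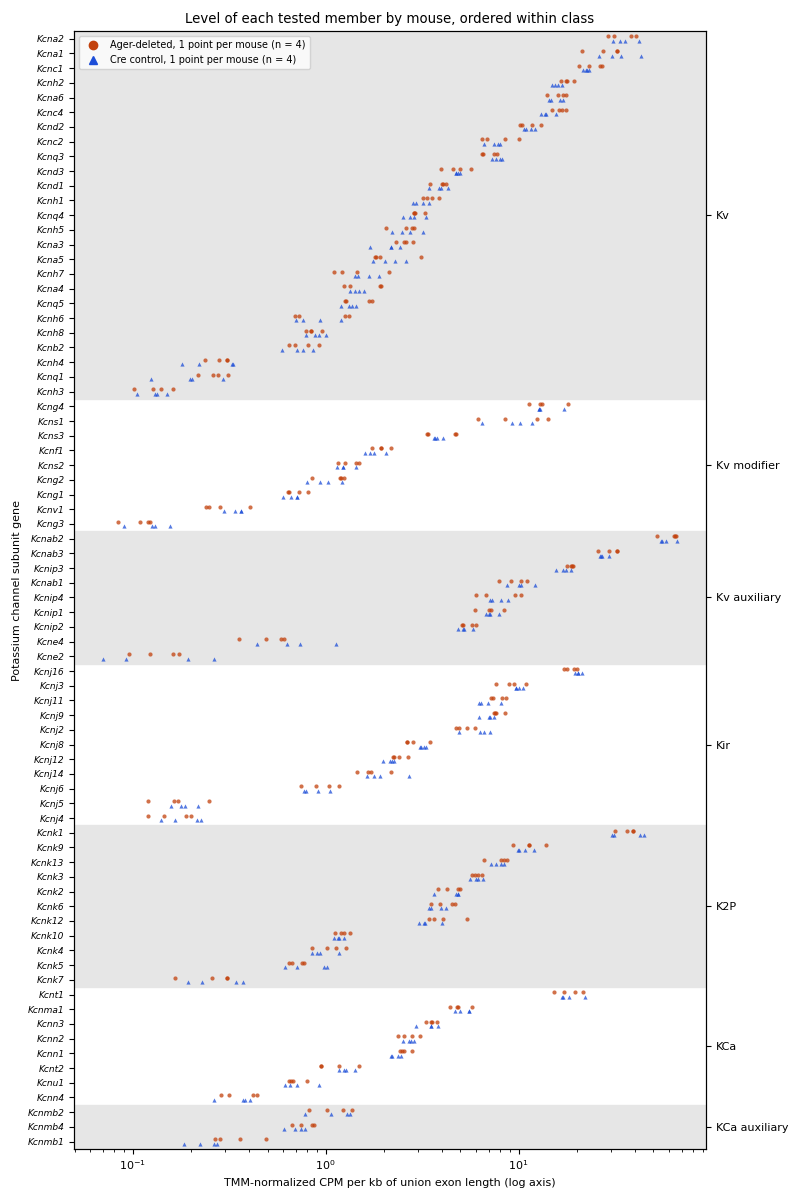
Level of 76 tested members in each mouse, as TMM-normalized CPM per kb of exon length on a log axis, ordered by mean level within class; circles are the 4 Ager-deleted mice and triangles the 4 Cre controls. The points of the genotypes overlap in every row, and single values run from 0.0699 to 66.4 per kb.

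Against this range between genes, no member was called different between genotypes. The edgeR exact test called 0 of the 79 members at an adjusted p under 0.05, where it called 0.0719% of all genes tested; the adjusted p of every member was 1. The edgeR quasi-likelihood test called 0 members (0.00514% of all genes), and its smallest adjusted p among members was 0.725, for *Kcnc4*. With dispersions estimated in separate common and tagwise steps, the exact test also called 0 members (0.401% of all genes). The smallest adjusted p among members was 0.470 with DESeq2 and 0.805 with limma-voom. At an unadjusted p under 0.05 in the exact test, 3 members were higher in Ager-deleted mice (1.2% of all genes) and 0 were lower (3.06% of all genes). The same 3 genes passed that level in the quasi-likelihood test (6.71% of all genes). For 0 members did the mice of the genotypes separate, whether with all Ager-deleted mice higher (1.97% of all genes) or lower (1.91% of all genes).

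The fold changes themselves were small. Of the 79 members, 46 had a log2 fold change above 0 (52% of all genes) and 33 below. The median was 0.04 on the log2 scale, with 0.01 over all genes tested, and the median size regardless of sign was 0.11, with 0.09 over all genes. The 95% interval of the fold change lay inside 1.25-fold in either direction for 26 members, inside 1.5-fold for 63 and inside 2-fold for 76. The 3 members whose interval passed 2-fold, *Kcne2*, *Kcne4* and *Kcnmb1*, were all expressed at a mean under 2 CPM. Counts of the tested members ranged from 4 to 17915 per mouse. Intervals past 1.5-fold were not confined to low counts, since those of *Kcna1* and *Kcns1*, at 148 and 26.8 CPM, also passed it.

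**Figure D2:**
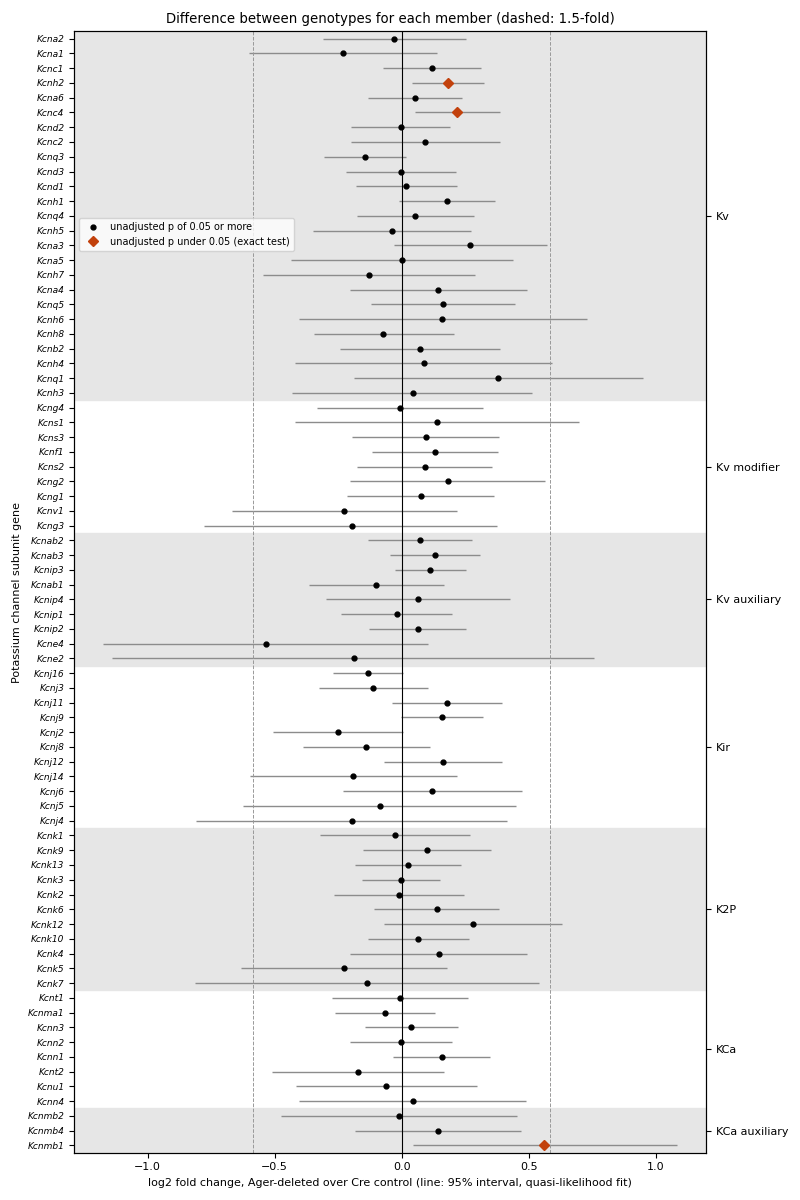
log2 fold change of 76 tested members, Ager-deleted over Cre control (n = 4 mice each), with its 95% interval from the quasi-likelihood fit; diamonds mark the 3 members with an unadjusted p under 0.05 in the exact test and dashed lines mark 1.5-fold. Most intervals span 0 and lie between the dashed lines.

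The 28 pore-forming Kv genes had a median log2 fold change of 0.06, with single values from -0.23 to 0.38. In this class 20 members were above 0 and 8 below, and the intervals of 24 lay inside 1.5-fold. Over all genes 52% were above 0, the share that stands beside the counts of each class and list below. Within the class 2 members had an unadjusted p under 0.05 in the exact test (4.26% of all genes). The 4 Kv3 genes, which encode channels of fast-firing neurons, were all above 0, and the highest was 0.22.

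*Kcnc4* (Kv3.4) lies on chromosome 3 (GRCm38, 107438303-107459552, minus strand). It measured 54.8, 59.1, 64.8 and 61.8 CPM in Ager-deleted mice and 48.0, 50.9, 57.2 and 50.6 CPM in controls. Control E6578 was higher than Ager-deleted mouse E1776, and the remaining mice separated. Mean levels were 60.1 ± 4.23 and 51.7 ± 3.94 CPM (SD, n = 4), and the log2 fold change was 0.22 (SE 0.07, 95% interval 0.05 to 0.38). The unadjusted p was 0.0259 by edgeR's exact test and 0.0147 by its quasi-likelihood test, and the latter's adjusted p was 0.725. The exact two-sided permutation test on log2(CPM + 1) gave p = 0.0571, where full separation of 4 and 4 mice gives 0.0286.

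*Kcnh2* (ERG1), whose channel carries a slowly deactivating current that limits repetitive firing, lies on chromosome 5 (GRCm38, 24319589-24351604, minus strand). It measured 86.5, 80.2, 93.9 and 85.9 CPM in Ager-deleted mice and 72.1, 74.5, 81.2 and 77.4 CPM in controls. The single overlap was control E6578 above Ager-deleted mouse E5231. The log2 fold change was 0.18 (SE 0.06, 95% interval 0.04 to 0.33), with an unadjusted p of 0.0362 by edgeR's exact test and an adjusted p of 0.742 by the quasi-likelihood test. Its relatives in the EAG family behaved less uniformly. *Kcnh1* (EAG1) measured 24.6, 23.5, 28.2 and 26.2 CPM against 23.3, 20.7, 25.3 and 21.5 CPM in controls, with a log2 fold change of 0.18 (95% interval -0.01 to 0.37). *Kcnh6* (ERG2), at 2.46, 2.59, 4.49 and 4.68 CPM in Ager-deleted mice, varied among them more than between the genotypes, whose means were 3.55 ± 1.19 and 3.19 ± 0.793 CPM (SD, n = 4). *Kcnh8* (ELK1), which lies 18001773 bp from *Ager* on chromosome 17, measured 3.90 ± 0.333 and 4.10 ± 0.410 CPM (SD, n = 4).

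Channels of axons and nodes formed a list of 7 members, of which 3 were above 0 and 4 below, with a median log2 fold change of -0.01. *Kcna1* and *Kcna2* form the juxtaparanodal Kv1 channel. *Kcna2* measured 455, 347, 487 and 371 CPM in Ager-deleted mice and 369, 401, 499.6 and 424 CPM in controls, with a log2 fold change of -0.03 (95% interval -0.31 to 0.25). *Kcna1* measured 155, 102, 155 and 132 CPM in Ager-deleted mice and 124, 146, 207 and 162 CPM in controls. The lowest value was in Ager-deleted mouse E5231 and the highest in control E6578, a 2.02-fold range. The log2 fold change of *Kcna1* was -0.23 (SE 0.17, 95% interval -0.60 to 0.14), and its unadjusted p was 0.189 by edgeR's exact test. It was -0.12 without E5231 and -0.08 without E6578. Without control E5386 the unadjusted p of *Kcna1* was under 0.05 by edgeR's exact test (5.73% of all genes in that fit). *Kcnab2* measured 359.9, 293, 359 and 366 CPM in Ager-deleted mice and 311, 306, 370.3 and 324 CPM in controls. Here too E5231 was lowest and E6578 highest.

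*Kcnq3* (Kv7.3), an M-current subunit placed at the axon initial segment and nodes, measured 113, 96.7, 110.0 and 94.7 CPM in Ager-deleted mice and 113, 118, 121 and 107 CPM in controls. E5231 and E5568 lay below all controls, while E1776 and E5248 lay among them, and the log2 fold change of *Kcnq3* was -0.15 (SE 0.07, 95% interval -0.31 to 0.02). Of the nodal K2P channels, *Kcnk2* (TREK-1) was at -0.01 (95% interval -0.27 to 0.24) and *Kcnk4* (TRAAK) at 0.15 (95% interval -0.20 to 0.49). By position *Kcnk2* overlaps *Pdcd5-ps* and *Kcnk4* overlaps *Catsperz*, each on the same strand, so the counts of both channels are less certain.

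The Kvβ and KChIP subunits, together with KCNE subunits, make up the 9 auxiliary Kv genes, whose median was 0.06. *Kcnab3* was at 85.9 ± 8.98 and 78.5 ± 3.99 CPM (SD, n = 4; 95% interval of the log2 fold change -0.05 to 0.31). *Kcnip3* (KChIP3) was at 66.1 ± 1.82 and 61.1 ± 4.32 CPM (-0.03 to 0.25). The 7 A-type channels and KChIPs, which shape subthreshold potassium current in dendrites, ran from -0.02 to 0.11, and all 7 intervals lay inside 1.5-fold. The 2 members of this class whose intervals passed 1.5-fold were the KCNE subunits, *Kcne2* at -0.19 (95% interval -1.14 to 0.76) and *Kcne4* at -0.53. *Kcne4* is a subunit that inhibits some Kv1 and Kv7 channels. It measured 0.940, 1.62, 1.30 and 1.55 CPM in Ager-deleted mice and 1.18, 1.67, 1.95 and 3.02 CPM in controls. Control E6732 alone stood far above the rest, and the log2 fold change was -0.53 (SE 0.29, 95% interval -1.18 to 0.10, unadjusted p = 0.0951 by edgeR's exact test). Without E6732 the log2 fold change of *Kcne4* was -0.24.

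Electrically silent modifiers do not form channels alone but change those of Kv2. The 9 members had a median of 0.09, with values from -0.23 to 0.18. *Kcng4* (Kv6.4), at 13.9 per kb, measured 68.5, 50.1, 49.4 and 43.2 CPM in Ager-deleted mice and 48.6, 49.0, 65.8 and 48.7 CPM in controls. A single mouse of each genotype, E1776 and E6578, was high. *Kcns1* (Kv9.1) measured 34.0, 38.7, 16.7 and 23.1 CPM against 31.9, 25.2, 17.5 and 27.5 CPM. Its 2.32-fold range was the widest of the members above 10 CPM, with a low mouse in each genotype (E5248 and E6578), and its log2 fold change was 0.14 (SE 0.25, 95% interval -0.42 to 0.70). *Kcns3* (Kv9.3) was at 12.8 ± 2.46 and 12.0 ± 0.556 CPM (SD, n = 4). *Kcng3* (Kv6.3), 48985021 bp from *Ager*, was at 0.366 ± 0.0612 and 0.421 ± 0.0922 CPM.

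The Kir class was the only one of the 7 with a median below -0.1. Its median log2 fold change was -0.11, with 7 members below 0 and 4 above. *Kcnj16* accounted for the largest level in the class. It measured 75.9, 78.8, 68.1 and 69.9 CPM in Ager-deleted mice and 83.6, 80.2, 77.2 and 79.9 CPM in controls. Only E5231 exceeded a control, and that control was E6578. The log2 fold change was -0.13 (SE 0.06, 95% interval -0.27 to 0.01), with p = 0.0571 in the exact permutation test. *Kcnj10* (Kir4.1), its astrocytic partner and not a member, was at -0.03 on the same scale.

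*Kcnj2* (Kir2.1), found in microglia, neurons and vessels, measured 32.2, 29.4, 26.6 and 25.7 CPM in Ager-deleted mice and 35.9, 34.2, 26.8 and 38.7 CPM in controls. Apart from control E6578 every control was above every Ager-deleted mouse. The log2 fold change was -0.25 (SE 0.11, 95% interval -0.51 to 0.00), the unadjusted p was 0.0601 by edgeR's exact test and the adjusted p 0.742 by its quasi-likelihood test. The G-protein-gated members *Kcnj3* (GIRK1) and *Kcnj9* (GIRK3), which mediate slow inhibition by metabotropic receptors, lay on either side of 0. *Kcnj3* measured 46.4, 40.0, 57.0 and 49.5 CPM against 50.7, 50.4, 52.7 and 54.8 CPM, and *Kcnj9* 31.9, 32.8, 32.2 and 36.4 CPM against 30.6, 26.7, 32.1 and 30.0 CPM. For *Kcnj9* a single pair of mice overlapped (permutation p = 0.0571, exact test), and its log2 fold change was 0.16 (95% interval -0.00 to 0.32). *Kcnj11* (Kir6.2), the pore of the ATP-sensitive channel, was at 0.18 (95% interval -0.04 to 0.39), and *Kcnj14* (Kir2.4), a motor neuron channel, at -0.19 (95% interval -0.60 to 0.22).

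After the values were seen, the summed Kir level was also compared by mouse. It was 57.5, 56.7, 57.7 and 56.2 per kb in Ager-deleted mice and 59.1, 57.9, 59.7 and 59.7 per kb in controls, so the groups did not overlap, with a mean difference of -3.50%. The gap between the nearest mice was narrow. Without *Kcnj16* the other 10 members summed to between 36.6 and 40.4 per kb in Ager-deleted mice and between 37.5 and 40.1 in controls. With *Kcnj16* included, the groups did not overlap under RLE scaling either (56.0 to 57.8 against 58.1 to 59.9). They overlapped under upper-quartile scaling (56.5 to 58.0 against 57.3 to 59.98) and under scaling by library size alone (56.4 to 58.9 against 55.3 to 61.0).

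Of the 11 K2P genes, which carry background current, 6 were above 0 and 5 below, with a median of 0.02. *Kcnk1* measured 87.7, 81.3, 70.7 and 87.7 CPM in Ager-deleted mice and 69.5, 100.5, 95.3 and 68.4 CPM in controls. Both extremes lay among controls, and the interval of its log2 fold change was -0.32 to 0.27. *Kcnk9* (TASK-3) measured 139, 115, 171 and 139 CPM against 122, 123, 149 and 132 CPM, with an interval of -0.15 to 0.35. *Kcnk12* (THIK-2), 53144865 bp from *Ager*, measured 10.6, 6.74, 7.17 and 8.01 CPM against 6.02, 6.39, 7.93 and 6.49 CPM. Its highest value was in E1776, and its log2 fold change was 0.28 (SE 0.16, 95% interval -0.07 to 0.63).

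The KCa class had a median log2 fold change of 0.00 to the nearest hundredth, and all 8 intervals lay inside 1.5-fold. *Kcnt1* (Slack) measured 187, 144, 206 and 164 CPM in Ager-deleted mice and 210.0, 173, 159 and 162 CPM in controls. *Kcnma1*, the pore of the large-conductance BK channel, was at 84.0 ± 9.48 and 87.8 ± 7.12 CPM (SD, n = 4), and *Kcnn3* (SK3), which supports the afterhyperpolarization of motor neurons, at 37.0 ± 1.96 and 36.0 ± 3.85 CPM. The highest *Kcnt1* value was in control E5386 and the lowest in Ager-deleted mouse E5231.

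Among the BK auxiliary subunits, *Kcnmb1* (β1, the subunit of smooth muscle) had the largest fold change of any member. It lies on chromosome 11 (GRCm38, 33963013-33973641, plus strand) inside *Kcnip1*, which is read from the other strand, and the strand setting of the counting is not given in the sources used here. *Kcnmb1* measured 1.12, 2.05, 1.19 and 1.50 CPM in Ager-deleted mice and 0.930, 0.772, 1.11 and 1.14 CPM in controls. E5231 was far above the rest, and control E6732 lay above E1776. The log2 fold change was 0.56 (SE 0.23, 95% interval 0.04 to 1.08), with an unadjusted p of 0.0409 by edgeR's exact test and an adjusted p of 0.742 by its quasi-likelihood test. The mean log2(CPM + 1) of 6 pericyte and smooth muscle genes was also highest in E5231, at 4.32. It lay between 3.87 and 4.30 in the other mice. The value of 4.30 was that of control E6578, where *Kcnmb1* was 1.11 CPM. Genotype means of these marker genes were 4.04 in Ager-deleted mice and 4.07 in controls. Their part in the *Kcnmb1* values was not tested. Without E5231 the log2 fold change of *Kcnmb1* was 0.36 (unadjusted p = 0.169, exact test). *Kcnmb2* (β2) was at 3.46 ± 0.747 and 3.49 ± 0.797 CPM (SD, n = 4).

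**Figure D3:**
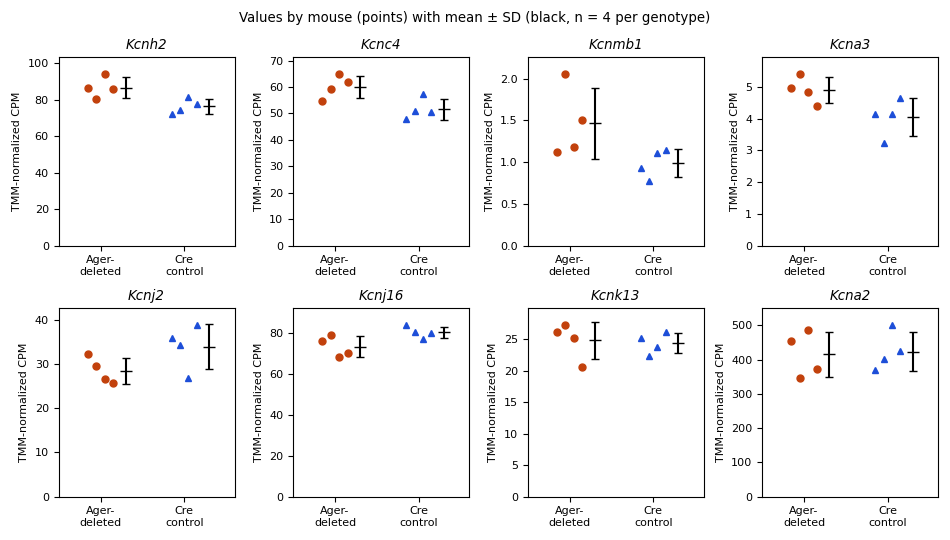
TMM-normalized CPM of 8 members in each mouse, with the mean and SD of the 4 mice per genotype beside the points. Each panel starts at 0, and in every panel the genotypes overlap by at least 1 pair of mice.

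None was called in a list of 5 channels reported in microglia, cells in which *Cx3cr1*-driven Cre acts. The levels of these channels are those of whole cord, and some, such as *Kcnj2*, are also found in other cells. Their log2 fold changes ran from -0.25 to 0.27 with a median of 0.04, and all 5 intervals lay inside 1.5-fold. *Kcnk13* (THIK-1), the tonic potassium channel of microglia, measured 26.2, 27.2, 25.3 and 20.6 CPM in Ager-deleted mice and 25.2, 22.4, 23.8 and 26.1 CPM in controls. Ager-deleted mice held both the highest and the lowest value, and the log2 fold change was 0.02 (SE 0.09, 95% interval -0.18 to 0.23). *Kcnk6* (TWIK-2), which has been linked to inflammasome activation, measured 19.5, 18.7, 14.6 and 16.3 CPM against 14.6, 17.5, 16.5 and 14.2 CPM, an interval of -0.11 to 0.38. *Kcna3* (Kv1.3), a channel of activated microglia and lymphocytes, measured 4.95, 5.39, 4.83 and 4.39 CPM in Ager-deleted mice and 4.16, 3.24, 4.16 and 4.64 CPM in controls. Control E6732 was above E5568, and no other control reached an Ager-deleted mouse. Its log2 fold change was 0.27 (SE 0.14, 95% interval -0.03 to 0.57; p = 0.0571 in the exact permutation test). *Kcnn4* (KCa3.1) measured 1.47, 2.16, 1.61 and 2.25 CPM against 1.34, 1.91, 1.95 and 2.07 CPM, and its interval was wide, from -0.40 to 0.49.

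Beside these values, the mean log2(CPM + 1) of 11 microglial marker genes was 6.90, 7.09, 6.34 and 6.55 in Ager-deleted mice and 6.91, 6.84, 6.78 and 6.73 in controls. The Ager-deleted mice spanned the wider range, with E5231 highest and E5248 lowest of all 8. *Kcnk13*, *Kcnk6* and *Kcna3* were each higher in E5231 than in E5248, but the other mice did not keep the order of the marker mean. *Kcna3* in E5248, at 4.83 CPM, was above every control. *Kcnk13* was lowest in E5568 and *Kcnk6* highest in E1776. The part of microglial number in the channel values was not tested.

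Other lists of members also held none with an adjusted p under 0.05 by edgeR's exact test. The 8 channels of motor neuron cell bodies, among them *Kcnn3*, *Kcnma1* and *Kcng4*, ran from -0.06 to 0.10, and all 8 intervals lay inside 1.5-fold. The 4 astrocyte-associated channels ran from -0.13 to 0.04. The 6 tested channels of pericytes, smooth and skeletal muscle had a median of 0.11, with 5 above 0, and ranged from -0.14 to 0.56, the upper end being *Kcnmb1*. *Kcna5* (Kv1.5) of this list measured 5.23, 5.18, 5.50 and 8.89 CPM against 5.06, 7.44, 6.53 and 5.79 CPM, so that E5568 alone was high among Ager-deleted mice. Of 27 genes for channel partners and relatives outside the membership (accessory proteins such as *Dpp6*, juxtaparanodal scaffolds such as *Cntnap2*, and the HCN channels), 14 were above 0 and 13 below. In the exact test 0 of them passed an unadjusted p of 0.05 (4.26% of all genes).

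In the exact permutation test 8 members reached p = 0.0571, the value that results when a single pair of mice overlaps, while 7.42% of all genes had this p or the smaller one. They were *Kcna3*, *Kcnc4*, *Kcnh2*, *Kcnj9*, *Kcnj16* and *Kcnmb1*, together with *Kcnj12* and *Kcnn1*, which were named after their values were seen. The permutation p adjusted over all genes was 0.77 for each. The smallest p that 4 against 4 mice allow, 0.0286, was reached by 0 members.

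Across many members the extreme values fell in the same pair of mice, both Ager-deleted, and low values fell also in control E5386. E5248 had the highest value of the 8 mice in 27 members (34.2%, against 17.3% of all genes tested), and E5231 had the lowest in 22 (27.8%, against 15.7% of all genes). Control E5386 was lowest in 14 members (17.7%, against 9.45% of all genes). By contrast E5231 was highest in 10 members (12.7%, against 17.1% of all genes) and E5248 lowest in 3 (3.80%, against 18.1%). These shares are a description of the libraries, since members of one mouse are not independent. The median deviation of the members from their mean over all mice, on the log2 scale, was 0.03, -0.07, 0.10 and 0.03 in Ager-deleted mice and -0.08, -0.04, 0.04 and -0.02 in controls. Within the Kv class the contrast was wider, at -0.16 in E5231 and 0.20 in E5248. E5248 was highest in 13 of the 28 Kv genes and E5231 lowest in 10. Of the 7 axonal and nodal channels, E5231 was lowest in 5.

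The mean of the neuron markers had its extremes in the same pair of mice, but the other mice did not keep the order. E1776 was next lowest in that mean, while its median deviation over the members was 0.03. Of the 9 neuronal genes, E5248 was highest in 6 and E5231 lowest in 4. The mean log2(CPM + 1) of 9 neuronal genes was 7.87, 7.82, 8.25 and 8.12 in Ager-deleted mice and 7.87, 7.95, 8.13 and 8.01 in controls, lowest in E5231 and highest in E5248. The 6 lumbar Hox genes were also highest in E5248, at 4.50, and lay between 3.47 and 4.25 in the other mice. The motor neuron list did not have its extremes in E5231 and E5248, at 3.80, 3.56, 3.52 and 3.24 against 3.41, 3.75, 3.85 and 3.60. Whether the neuronal share of the tissue carried the deviations of the channel genes was not tested. The spread of the members within a genotype was somewhat above that of all genes, with a median SD on the log2 scale of 0.164 in Ager-deleted mice (0.137 over all genes) and 0.126 in controls (0.106 over all genes).

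**Figure D4:**
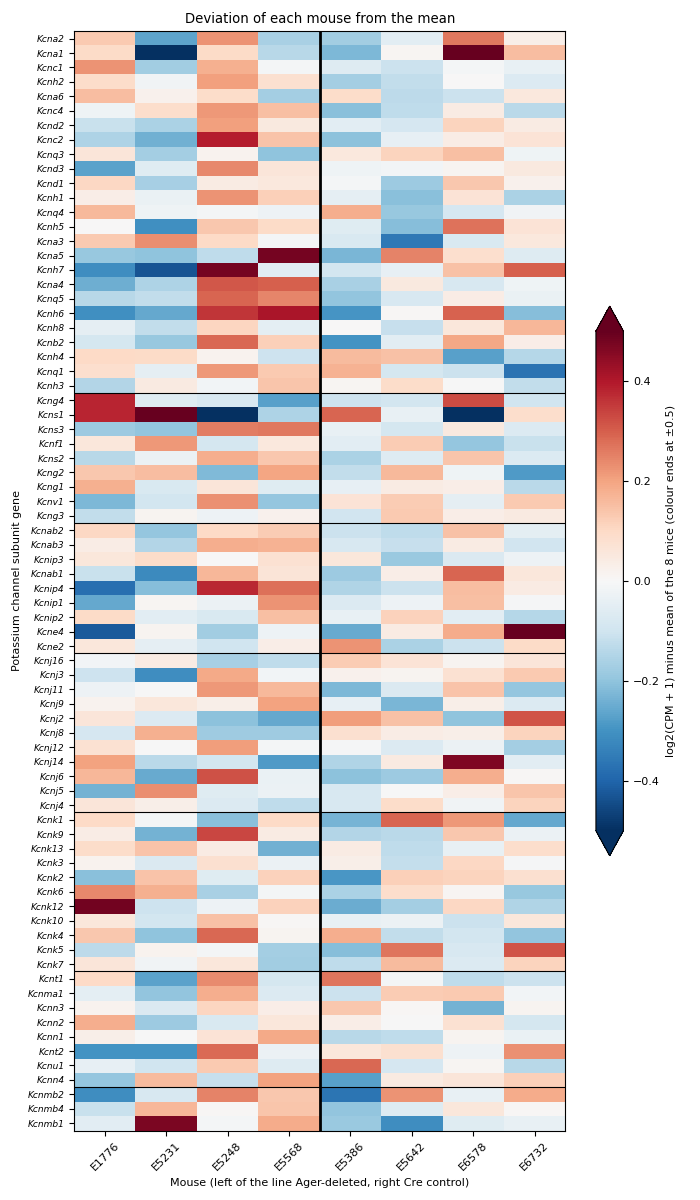
Deviation of 76 tested members in each mouse from its mean over the 8 mice, as log2(CPM + 1), with Ager-deleted mice left of the vertical line and classes parted by horizontal lines. Red cells lie above the mean and blue below: the Kv rows are mostly red in E5248 and mostly blue in E5231, although both are Ager-deleted.

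The 3 members with an unadjusted p under 0.05 depended on single mice. Without E5568 and without control E5642, 0 members passed that level by edgeR's exact test (3.23% and 2.81% of all genes in those fits). Without control E6578, 6 did (*Kcnc4*, *Kcnh1*, *Kcnh2*, *Kcnj2*, *Kcnj11* and *Kcnmb1*), or 7.59% of members against 4.19% of all genes. Without the 2 controls high in skeletal muscle genes, the 3 that passed (3.80% of members against 3.78% of all genes) were other genes: *Kcna1* and *Kcne4*, lower in Ager-deleted mice, and *Kcnq1*, higher. The same 3 genes passed without control E5386 alone (3.80% of members against 5.73% of all genes). *Kcnq1* (Kv7.1), named after its values were seen, measured 1.07, 0.890, 1.27 and 1.14 CPM against 1.20, 0.834, 0.813 and 0.511 CPM, and it overlaps the antisense transcript *Kcnq1ot1*. The number of members passing an adjusted p of 0.05 was 0 under every one of these choices.

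The 12 members below the filter were at or near 0 in most mice, and they were named after their values were seen. *Kcnj1* (ROMK, the renal secretory channel) had 0 counts in every mouse. The highest count in any mouse was at most 7 for *Kcna10*, *Kcne1*, *Kcne3*, *Kcnj15*, *Kcnk15*, *Kcnk16*, *Kcnk18*, *Kcnmb3* and *Kcnv2*. The other two members had their highest counts in controls. *Kcna7*, a channel of skeletal muscle, had 2, 1, 2 and 2 counts in Ager-deleted mice and 18, 25, 0 and 1 in controls. The mice with 18 and 25 counts, E5386 and E5642, were those with high skeletal muscle genes. *Kcnj13* (Kir7.1), a channel of choroid plexus, had 2, 4, 8 and 10 counts in Ager-deleted mice and 4, 9, 12 and 62 in controls. The control with 62 counts, E6732, also had the highest mean over 6 choroid plexus genes, at 2.62, which lay between 1.21 and 1.95 in the other mice. *Ttr* belonged both to this list and to the liver list, whose mean was also highest in E6732.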

How the data were processed

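RNA-seq was done on poly(A) RNA from the lumbar spinal cord of 8 mice, grouped by labelled genotype, with mouse IDs as names. Raw counts for each gene were deposited by the authors after trimming (Trimmomatic 0.36), alignment to mm10 (STAR 2.7.3a) and counting with featureCounts (Subread 1.6.3), the tools being named in the submitters' processing notes. A second deposited table holds log2 CPM with TMM scaling, after a filter on low counts. Its values were recomputed from the counts to within 4.78e-06, and all tests used the counts.

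Genes were filtered with filterByExpr (minimum count 10), scaled by TMM and tested over all 19470 genes in edgeR 4.0.16 (R 4.3.3), with Benjamini-Hochberg adjustment and a threshold of 0.05. The exact test used estimateDisp without a design and called 14 genes in all. The study does not state its dispersion estimate. With separate common and tagwise steps the exact test called 78 genes, the number that the study reports. Whether these are the same genes was not compared. Standard errors and 95% intervals came from the quasi-likelihood fit. DESeq2 1.42.0 and limma 3.58.1 were alternatives. The gene-wise tests (exact, quasi-likelihood, DESeq2 and voom) were checked on simulated counts. Permutation tests were two-sided over the 70 assignments of mice, with a pseudocount of 1 CPM. Mean values are TMM-normalized CPM.

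Total counts per mouse were at least 31148047, and 3 counts, the detection floor, equalled at most 0.0963 CPM. The intervals given here are those of the fold changes from the quasi-likelihood fit, and they include variation between mice as well as counting error. All 28 pairs of libraries differed beyond sampling noise (chi-square per degree of freedom 17.4 to 131), so none was counted as a duplicate. Positions and lengths came from GENCODE M21 on GRCm38, and all 79 tested members matched by symbol. The authors used a later release. By position, 23 members overlapped a tested gene on the other strand and 4 on the same strand. The library kit marks strand.

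The members and lists were chosen with earlier results of these data known; lists were written from general knowledge. Named members were the 10 ranked lowest by p in the exact test, those without overlap between genotypes, the 3 with the highest level per kb in each class (1 in classes under 5 members), the microglial and axonal lists, the 5 with the largest ratio of highest to median mouse at a mean of at least 1 CPM, those on the chromosome of *Ager*, and any with an adjusted p under the threshold. Single values of 3 members are not reported here, although the counts, sums and medians include them.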

Additional observations from a re-analysis of the deposited data

Results flagged for a closer look

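Among the named members, 4 of 74 groups of 4 mice held a mouse set apart from the other three by the gap criterion, where chance gives about 5%. *Kcna5* was 8.89 CPM in Ager-deleted mouse E5568, with the next highest Ager-deleted mouse at 5.50 CPM. *Kcnab2* was 293 CPM in Ager-deleted mouse E5231, with the next lowest at 359 CPM. *Kcng4* was 65.8 CPM in control E6578, with the next highest control at 49.0 CPM. *Kcnk2* was 17.9 CPM in control E5386, with the next lowest control at 23.4 CPM. None of these members had an unadjusted p under 0.05 in edgeR's exact test.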

How the results depend on the processing

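The result that 0 members passed an adjusted p of 0.05 held under every alternative run: the other tests and dispersions, RLE, upper-quartile and library-size scaling, no filter or a stricter one (which left 73 members), each mouse left out in turn, both muscle-high controls left out, skeletal muscle genes removed, and a muscle score as covariate. The smallest adjusted p was 0.319, without control E6578. Members with an unadjusted p under 0.05 numbered 3, and from 0 to 6 with 1 mouse left out. Members without overlap numbered 0, but 1 with upper-quartile scaling (3.71% of all genes), 3 with library size only (3.84%) and 4 without a filter (2.77%). They numbered 8 without both muscle-high controls (12.8% of all genes then), and from 0 to 9 with 1 mouse left out (4.99% to 11.0% of all genes). The 9 of 79 members came without control E6578, where the share of all genes was 7.53%. The share of 11.0% came without Ager-deleted mouse E5248, where 3 members did not overlap. The median log2 fold change of the members ranged from -0.00092 to 0.071, and library-size scaling moved the median of all genes from 0.0069 to 0.032. No cause was tested.

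Among 37 named members, the sign turned in 18 of 443 comparisons of a member with an alternative other than leaving out 1 mouse, none of them called. *Kcna5* was -0.0040 with DESeq2, -0.014 with limma-voom, -0.0044 with RLE and -0.0020 with the stricter filter. With library size only, *Kcng4* was 0.018, *Kcnk1* 0.0027, *Kcnk2* 0.015, *Kcnmb2* 0.017 and *Kcnt1* 0.018. Without both muscle-high controls and with the muscle covariate, in that order, *Kcnab2* was -0.018 and -0.016, *Kcnk13* -0.017 and -0.018, *Kcnn4* -0.11 and -0.076, and *Kcnt1* 0.12 and 0.12. *Kcnk9* was -0.0027 without both controls. With 1 mouse left out, the log2 fold change ranged for *Kcna2* from -0.11 to 0.060, *Kcna5* from -0.22 to 0.091, *Kcng4* from -0.16 to 0.11, *Kcnh6* from -0.0013 to 0.33, *Kcnk1* from -0.11 to 0.068, *Kcnk13* from -0.022 to 0.10, *Kcnk2* from -0.11 to 0.057, *Kcnk9* from -0.0071 to 0.19, *Kcnmb2* from -0.16 to 0.11, *Kcnn3* from -0.030 to 0.084, *Kcnn4* from -0.089 to 0.14, *Kcns1* from -0.053 to 0.32 and *Kcnt1* from -0.092 to 0.082. The difference of the summed Kir level, an alternative chosen after seeing the data, was -3.50%, and -3.79% with RLE, -3.19% with upper-quartile scaling, -1.82% with library size only and -0.72% without *Kcnj16*.

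No paired analysis was possible because the labels name mice by ID and give the genotypes no shared replicate numbers. The widest interval was that of *Kcne2*, at a mean of 0.258 CPM, and whether depth set the width of the intervals was not tested. With 4 mice per genotype the exact permutation test cannot go below 0.0286, and an interval inside 1.5-fold does not show that a member was equal.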
